A study of Mus musculus with 386 samples.

Results

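Growth differentiation factor 9 (Gdf9), bone morphogenetic protein 15 (Bmp15) and bone morphogenetic protein 6 (Bmp6) are the 3 genes described here, taken by name from the 54658 gene rows of a count table of single mouse germ cells. Female germ cells had been picked by hand out of dissociated ovaries at 3 stages named by embryonic (E) or postnatal (P) day, E17.5, P2.5 and P6.5, and each cell was turned into its own Smart-seq2 library. Of 386 libraries, the E17.5 stage gave 22, P6.5 gave 47 and P2.5 gave the others. The labels give no strain, genotype, treatment, animal, litter or pool. Each stage was therefore treated as 1 sample made of cells, and no test between stages was made.

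All 3 genes encode secreted ligands of the transforming growth factor beta (TGF-beta) family. Such ligands are made as proproteins, cut by proprotein convertases, and bind a complex of type I and type II receptors that phosphorylates SMAD proteins, which then act on transcription. In the ovary, GDF9 and BMP15 are made by the oocyte and act on the granulosa cells around it, where they are known for supporting follicle growth and cumulus expansion. GDF9 signals mainly through the SMAD2 and SMAD3 branch, and BMP15 and BMP6 through the SMAD1 and SMAD5 branch. BMP6 is made by oocytes and by other tissues as well.

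In the GENCODE M21 annotation of GRCm38 (mm10), Gdf9 (ENSMUSG00000018238.6) lies on the plus strand at chr11:53431023-53437904, and Bmp15 (ENSMUSG00000023279.7) on the minus strand at chrX:6314107-6320721. Bmp6 (ENSMUSG00000039004.6) spans chr13:38345107-38500302 on the plus strand. Gdf9 starts beside the start of Uqcrq, a mitochondrial complex III subunit gene on the opposite strand, with no overlap between them. The last bases of Bmp6 overlap the end of Txndc5, a gene of the endoplasmic reticulum on the opposite strand. The strand setting of the counts is not stated, so reads from that overlap cannot be told apart.

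RefSeq promoter windows of GRCm38.p6, from 250 bases before to 50 after the RefSeq start, were matched for 2 of the 3 genes, Bmp15 and Bmp6. For Bmp6 that start lies downstream of the GENCODE start given above. The whole Bmp6 window, from chr13:38345466, thus lies inside the GENCODE gene, which begins at 38345107. No window was matched for Gdf9, so only these 2 are shown. Capitals mark matches on either strand to an E-box (CANNTG, the motif of basic helix-loop-helix factors such as FIGLA and SOHLH1), to the NOBOX element (TAATTA or TAATTG) and to a TATA box (TATAAA, which reads TTTATA from the other strand).
Bmp15, chrX:6320675-6320974, minus strand: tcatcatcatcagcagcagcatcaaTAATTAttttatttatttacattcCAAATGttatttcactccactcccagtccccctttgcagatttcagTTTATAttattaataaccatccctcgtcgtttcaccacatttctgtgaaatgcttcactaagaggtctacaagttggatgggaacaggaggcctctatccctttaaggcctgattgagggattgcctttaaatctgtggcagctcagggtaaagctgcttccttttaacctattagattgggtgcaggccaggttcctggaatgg
Bmp6, chr13:38345466-38345765, plus strand: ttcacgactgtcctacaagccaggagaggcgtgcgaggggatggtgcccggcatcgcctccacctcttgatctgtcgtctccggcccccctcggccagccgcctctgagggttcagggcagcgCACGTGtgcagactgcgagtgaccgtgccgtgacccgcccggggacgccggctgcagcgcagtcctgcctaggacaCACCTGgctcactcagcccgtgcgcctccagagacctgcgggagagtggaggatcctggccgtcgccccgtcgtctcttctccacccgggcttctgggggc
The Bmp15 window was 41.7% G and C with 2 CG dinucleotides, and the Bmp6 window 69.3% with 27, against medians of 52.7% and 7 over the 32851 promoters in the table. Bmp15 held 1 E-box, 1 TAATTA and 1 TATAAA, and Bmp6 held 2 E-boxes and none of the other motifs. E-boxes occurred in 72.3% of all promoters of this length, TAATTA in 5.29%, TAATTG in 8.0% and TATAAA in 13.6%, and none of these motifs overlapped another in the 2 windows. A match is a description of the letters and does not show binding.

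Libraries differed in ways that touch the results. An E17.5 library held 1016746 to 16125066 counts, a P2.5 library 435560 to 23982709 and a P6.5 library 5714357 to 15799302, and gene counts per spike-in count had medians of 81.3, 465 and 3203. In 24 P2.5 pairs, the counts of 2 libraries agreed closely over genes and were summed as 1 cell, leaving 362 cells in all. The summed level of 6 germ cell markers (Ddx4, Dazl, Dppa3, Mael, Taf4b and Sycp3) spanned 2003 to 7680 counts-per-million (CPM) over the P2.5 cells and 3636 to 6741 over those of P6.5. At E17.5 it was 246.6 to 5294 CPM, with the lowest values in libraries 8, 10, 15 and 16 (488, 300, 246.6 and 705). Mast cell markers summed to 1390 to 1.12e+05 CPM in all of E17.5 libraries 1 to 10 and to 0 to 25.4 in libraries 11 to 22. At P2.5 and P6.5 they reached at most 27.7 and 7.0. Granulosa cell markers had medians of 122.1, 9.24 and 7.90 CPM at the 3 stages, and erythroid markers 1735, 9.40 and 0.988. These library numbers come from the labels, which do not name a batch, and the part of these differences in the results below was not tested.

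Gdf9 was the most abundant of the 3 transcripts at each stage, and its level was higher at each later stage. Over the 22 E17.5 libraries it ranged from 0 to 52.1 CPM with a median of 3.98, and 2 libraries had no count. Over the P2.5 cells it ranged from 0.412 to 1122 CPM with a median of 336. Over the 47 P6.5 cells it ranged from 622 to 5483 CPM with a median of 1765. The E17.5 and P6.5 cells did not overlap, and the share of all genes with no such overlap was not computed. Of the P2.5 cells, 95.9% lay above the highest E17.5 library, and 40 of the 47 cells of P6.5 lay above the highest of P2.5. Summed over a stage, Gdf9 was at 7.19 CPM (95% Poisson interval 6.76 to 7.65, 1016 counts), 408 CPM (407 to 409) and 2145 CPM (2141 to 2150). The ratio of P2.5 to E17.5 was 56.7 (interval 53.3 to 60.4) and that of P6.5 to P2.5 was 5.26 (5.24 to 5.28). These intervals cover only the Poisson error of the summed reads. Reads that carry no molecular identifier do not count separate molecules, so the counting error of molecules can be wider. The intervals hold nothing of the spread between cells or animals.

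**Figure D1:**
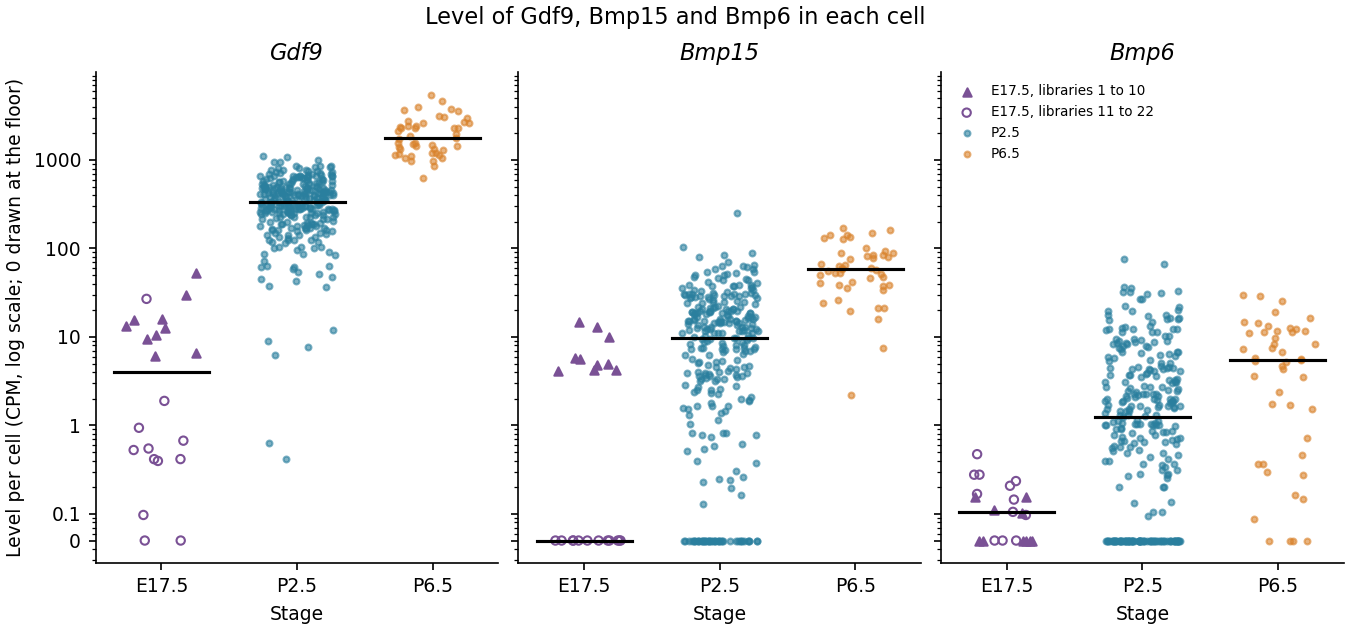
Level of each gene in each cell, in CPM on a log axis with cells at 0 drawn at the floor. Each point is a cell, black lines are medians, and E17.5 libraries 1 to 10 and 11 to 22 have separate symbols. Gdf9 medians step from 3.98 to 336 to 1765 CPM, and within P2.5 each of the 3 genes spreads over more than a 10-fold range.

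Bmp15 was far lower and more uneven. At E17.5 its median was 0 CPM and its highest value 14.8, with 12 of 22 libraries at 0. At P2.5 the lowest, median and highest cells were at 0, 9.76 and 253.9 CPM, with 43 cells at 0. At P6.5 every cell had counts, from 2.18 to 170.8 CPM with a median of 58.5. The stages overlapped: 38.2% of P2.5 cells were above the highest E17.5 library, and no P6.5 cell was above the highest P2.5 cell. Without that single cell at 253.9 CPM the P2.5 cells reached 104.4 CPM, and 8 of 47 P6.5 cells were above this. The cell had 65.8 gene counts per spike-in count, below the first quartile of its stage (307.8). The stage sums were 2.42 CPM (2.17 to 2.69, 342 counts), 17.4 (17.2 to 17.6) and 72.3 (71.5 to 73.2), which gave ratios of 7.19 (6.46 to 8.02) for P2.5 over E17.5 and 4.15 (4.09 to 4.22) for P6.5 over P2.5.

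Bmp6 was the lowest of the 3. The 22 E17.5 libraries held 16 Bmp6 counts in all, 0 to 2 per library, and the highest reached 0.473 CPM. At P2.5 it ranged from 0 to 75.1 CPM with a median of 1.26 and 77 cells at 0. At P6.5 it ranged from 0 to 29.6 CPM with a median of 5.47 and 4 of 47 cells at 0. Every P6.5 cell lay within the range of the P2.5 cells. The 3 highest P2.5 cells were at 75.1, 66.2 and 36.8 CPM, and each of them had 0 Bmp15 counts with Gdf9 at 228.15, 149.2 and 183.8 CPM. Others did not follow this: cells at 35.3 and 32.1 CPM of Bmp6 had Bmp15 at 29.75 and 84.6 CPM. Stage sums were 0.113 CPM (0.0647 to 0.184), 4.31 (4.23 to 4.40) and 7.39 (7.12 to 7.65). P2.5 was 38.1-fold above E17.5 (23.4 to 66.7), and P6.5 was 1.71-fold above P2.5 (1.64 to 1.78).

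Set beside all genes, with 0.5 CPM added to each stage sum, 3 of 3 had a P2.5 sum at least 2-fold above that of E17.5, where 22.6% of 17421 measured genes were. For P6.5 over P2.5, 2 of 3 were, Gdf9 and Bmp15, where 6.90% of 14643 genes were. For P6.5 over E17.5, 3 of 3 were, where 22.7% of 17430 genes were. On this log2 scale Gdf9 was above 99.4% of measured genes for P2.5 over E17.5 (5.73) and above 99.2% for P6.5 over P2.5 (2.39). Bmp15 was above 93.6% (2.62) and 98.7% (2.02), and Bmp6 above 94.8% (2.97) and 89.3% (0.71). The Bmp6 step to P6.5 passed 2-fold with median-of-ratios scaling (1.05), with the median of per-cell CPM (1.77) and with spike-in scaling (3.64), and was 0.47 in mean FPKM. The 3 comparisons share stages and are not independent.

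Total counts per spike-in count differed between stages, so the choice of scale moved every ratio. The median log2 ratio over all genes went from -0.26 with library totals to 0.11 with TMM, -0.03 with median of ratios and 2.15 with spike-ins for P2.5 over E17.5, and from -0.18 to 0.05, 0.15 and 2.75 for P6.5 over P2.5. Genes at least 2-fold higher and lower changed from 22.6% and 32.4% to 29.1% and 25.3% with TMM and 75.5% and 4.16% with spike-ins for the first comparison. For the second they changed from 6.90% and 9.30% to 9.75% and 5.20% with TMM, 11.7% and 4.02% with median of ratios, and 99.1% and 0.0137% with spike-ins. For P6.5 over E17.5, with an all-gene median of -0.48, they changed from 22.7% and 39.5% to 32.3% and 27.3% with TMM, 31.5% and 28.1% with median of ratios, and 97.4% and 0.419% with spike-ins. The spike-in log2 ratios of Gdf9 were 8.13 and 5.33 in the first 2 comparisons, those of Bmp15 5.02 and 4.96, and those of Bmp6 5.38 and 3.64. All 3 genes stayed above the all-gene median on each of these scales. In counts per 1000 spike-in counts, Gdf9 ran from 0.136 to 1253 at P2.5 and from 1627 to 23326 at P6.5, with no overlap. All gene counts per spike-in count barely overlapped either, with the highest P2.5 cell at 2311 and the lowest P6.5 cell at 1885. The share of all genes without overlap was not computed, so the separation is not a result about Gdf9 alone.

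Bmp15 divided the E17.5 libraries by their label number. It was at 4.07 to 14.8 CPM in each of libraries 1 to 10, with 13 to 69 counts each, and at exactly 0 counts in each of libraries 11 to 22, which hold 77973311 counts together. A floor of 3 counts over those 12 libraries is 0.0385 CPM. Gdf9 ran from 6.08 to 52.1 CPM in libraries 1 to 10 and from 0 to 1.89 in libraries 11 to 22 apart from library 15, which had 26.9 CPM with no Bmp15 count and the lowest germ cell marker sum. Bmp6 had 4 counts in libraries 1 to 10 and 12 in libraries 11 to 22. The mast cell markers divided the libraries at the same number, and the 2 highest Gdf9 values in CPM stood in libraries 4 and 7, the 2 shallowest, whose mast cell marker CPM came next after that of library 10. In the deposited FPKM, fragments per kilobase scaled to a library total that the sources do not define, libraries 4 and 7 were at 4.91 and 4.55 for Gdf9, low against their CPM, and the other 8 of libraries 1 to 10 were at 3.50 to 9.23. The part of the mast cell counts and of depth in this division was not tested.

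**Figure D2:**
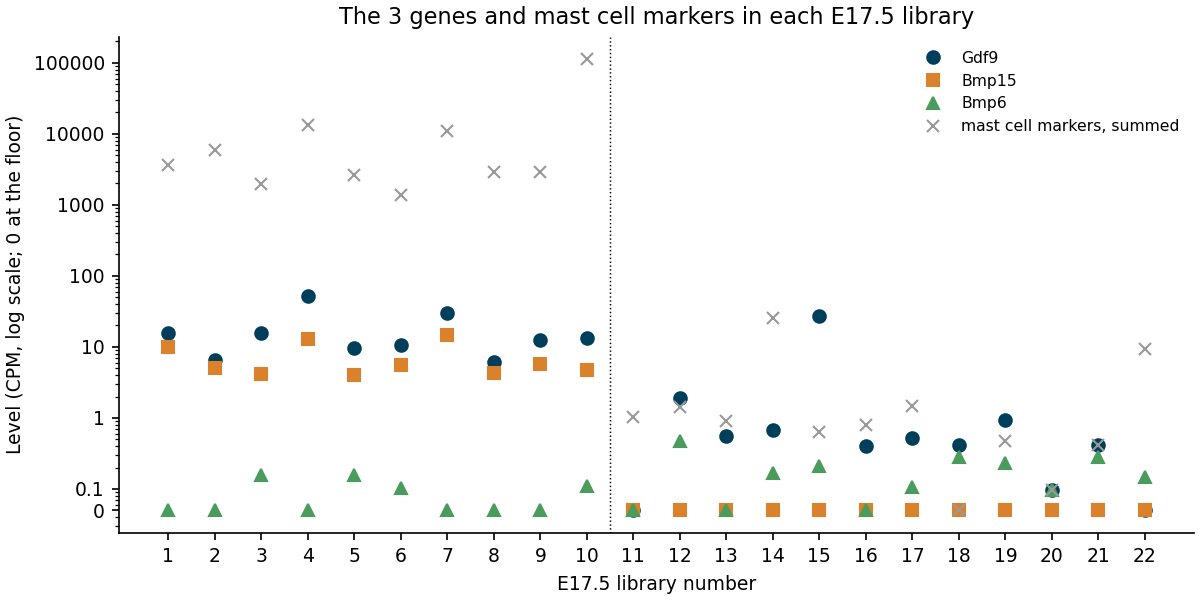
Gdf9, Bmp15, Bmp6 and the summed mast cell markers in each E17.5 library, in CPM on a log axis with 0 drawn at the floor; the x axis is the library number in the labels. Bmp15 is above 0 in libraries 1 to 10 and at 0 in libraries 11 to 22, and the mast cell markers change at the same dotted line.

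The size of the first step therefore depended on the E17.5 libraries used. P2.5 over libraries 1 to 10 alone was 35.5-fold for Gdf9, 3.22-fold for Bmp15 and 68.3-fold for Bmp6, the last on 4 counts (log2 interval 4.74 to 7.97). P2.5 over libraries 11 to 22 alone was 110-fold for Gdf9, at least 453-fold higher for Bmp15 against the floor, and 28.04-fold for Bmp6. Library 15 gave most Gdf9 counts of libraries 11 to 22, and without it and library 16 Gdf9 there was at 0.444 CPM in place of 3.71. Without libraries 8, 10, 15 and 16, the ratios were 75.4, 7.49 and 32.8. P6.5 over E17.5 was 298.2-fold for Gdf9, 29.9-fold for Bmp15 and 65.2-fold for Bmp6 with all libraries. With libraries 1 to 10 alone it was 186.7-fold, 13.4-fold and 116.8-fold. With libraries 11 to 22 alone it was 579-fold, 1880-fold against the floor and 47.99-fold.

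Within single cells, Gdf9 exceeded Bmp15 on the length-corrected FPKM scale in every P2.5 cell and every P6.5 cell. Median FPKM was 2.43, 210.55 and 1056 for Gdf9 at the 3 stages, 0, 2.97 and 18.2 for Bmp15, and 0, 0.390 and 2.01 for Bmp6. The ratio of Gdf9 to Bmp15 FPKM within a cell had a median of 4.10 in the 10 E17.5 libraries with both (quartiles 3.35 and 5.51), 58.2 in the P2.5 cells with both (32.1 and 132.9) and 63.2 in 47 P6.5 cells (51.03 and 80.7). The interquartile ranges of P2.5 and P6.5 overlapped and that of E17.5 lay below them. Those 10 libraries are libraries 1 to 10, with the mast cell counts given above. Bmp15 exceeded Bmp6 in 70.6% of the P2.5 cells and in 47 of 47 at P6.5. Of the P2.5 cells, 23 had no count of either gene and show no order, and 20 had Bmp6 counts with none of Bmp15. The order of those 2 genes was thus not the same in every P2.5 cell, though many of these levels were near 0.

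Depth set how often a gene was seen, so each cell was also thinned to 100000 counts. Gdf9 then had a count in 7 of 22 E17.5 libraries (31.8%, exact 95% interval 13.9% to 54.9%), 98.3% of P2.5 cells (96.1% to 99.4%) and 47 of 47 at P6.5. Bmp15 had one in 6 of 22 (27.3%, 10.7% to 50.2%), 53.6% of P2.5 cells (47.7% to 59.4%) and 44 of 47 (93.6%, 82.5% to 98.7%). Bmp6 had one in 0 of 22, which at this thinned depth allows up to 15.4% of libraries with a count, in 26.3% of P2.5 cells (21.3% to 31.7%) and in 20 of 47 (42.6%, 28.3% to 57.8%). Unthinned, the shares were 90.9%, 100% and 100% for Gdf9, 45.5%, 85.3% and 100% for Bmp15, and 59.1%, 73.7% and 91.5% for Bmp6. Unthinned, Bmp6 at E17.5 had 1 or 2 counts in each of 13 libraries. The intervals on shares treat cells as independent and hold nothing of the spread between animals. As a measure of background, 6 genes of other cell types were counted in the same way. Foxl2, a granulosa cell gene, had a count in 5.12% of thinned P2.5 cells and 4.26% of thinned P6.5 cells (38.6% and 21.3% unthinned), and Amhr2, another, in 10.6% and 2.13%. Tyrobp, a myeloid gene, the liver gene Alb and the pancreas gene Ins2 were at 0.341%, 1.02% and 0.341% of P2.5 cells and at 0 of 47 at P6.5, which allows a share of up to 7.55%. Pecam1, an endothelial gene, was at 54.3% and 19.1% (96.6% and 82.98% unthinned). At P2.5 the Bmp15 share was thus no higher than that of Pecam1, and the Bmp6 share was below it. Both were above the other 5 genes, and at P6.5 both were above all 6. Pecam1 stood apart in level from the other listed endothelial genes. In the P2.5 sum it was at 15.6 CPM, and Cdh5, Kdr, Emcn and Tek were at 0.14, 0.20, 0.27 and 1.10. The source of the Pecam1 counts was not tested. In the E17.5 libraries Foxl2, Tyrobp, Amhr2 and Pecam1 were at 27.3%, 40.9%, 50% and 63.6% thinned, so the Gdf9 and Bmp15 shares there were also reached by genes of other cell types. A count of all 3 genes was present in 66.9% of P2.5 cells and 91.5% of P6.5 cells, or 17.1% and 42.6% after thinning.

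The 24 pairs of near-identical libraries were joined because their counts agreed over all genes, so small differences within them follow from that choice and are given as a description. The median absolute log2 difference within a pair was 0.07 for Gdf9, 0.14 for Bmp15 and 0.15 for Bmp6. The largest were 2.06, 1.18 and 0.73. Gdf9 had counts in both libraries of 24 of 24 pairs. Bmp15 had counts in both of 20 and in neither of 2, and Bmp6 in both of 18 and in neither of 6, which leaves 2 pairs and 0 pairs that disagreed. The labels do not say what such a pair shares.

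A small number of P2.5 cells had very little Gdf9. In 12 cells it was at or below the highest E17.5 value, and in the lowest 6 of them it was at 0.412, 0.638, 6.32, 7.70, 9.03 and 11.9 CPM. Those 6 cells had 0 or 1 Bmp15 counts each, and the 12 cells included 5 of the 43 cells of that stage at 0 for Bmp15. Their germ cell marker sums, 2757 to 4182 CPM, lay within the range of the stage. A list of 15 oocyte growth and egg coat genes, among them Zp1, Zp2, Zp3, Padi6, Nlrp5 and Zar1, summed to 2096 to 9051 CPM in the 12 cells with a median of 5782, against a median of 9545 over all P2.5 cells. The cells at 6.32 and 7.70 CPM were summed pairs, and the low value was present in each library, with 45 and 16 Gdf9 counts in the first pair and 32 and 7 in the second.

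**Figure D3:**
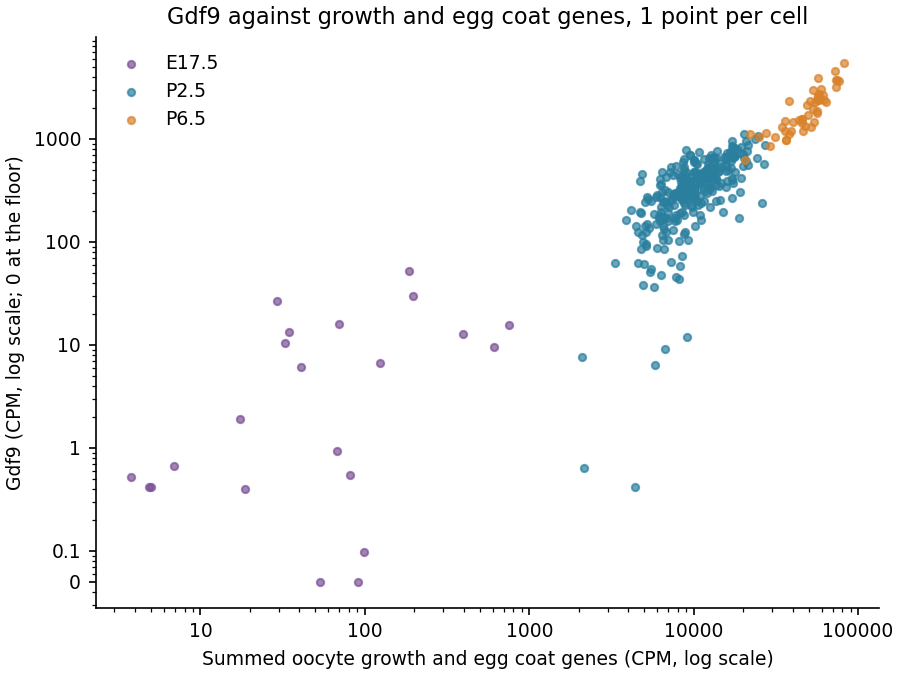
Gdf9 against the summed CPM of 15 oocyte growth and egg coat genes on log axes, with each point a cell and Gdf9 values of 0 drawn at the floor. The stages lie along a rising band, with 6 P2.5 cells under 12 CPM below it.

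Over cells of a stage, Gdf9 and Bmp15 varied together more than either did with Bmp6. Spearman's rho of CPM between Gdf9 and Bmp15 was 0.46 over the P2.5 cells and 0.70 over 47 P6.5 cells. It was 0.16 and 0.44 between Gdf9 and Bmp6, and 0.24 and 0.49 between Bmp15 and Bmp6. These are descriptions of cells that share a stage, and each value shares the library total it was divided by. For Gdf9 the median rho with all genes compared was 0.02 at P2.5 (7473 genes, 95th percentile 0.31) and -0.09 at P6.5 (7173 genes, 0.47), and for Bmp15 it was 0.03 (0.27) and -0.08 (0.44). The Gdf9 and Bmp15 values were thus above the 95th percentile of either gene at each stage. For Bmp6 the 95th percentiles were 0.14 and 0.35, and its values with Gdf9 and with Bmp15 were above them, while those of Gdf9 and Bmp6 were below the 95th percentile of Gdf9 at each stage.

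Depth moved with these levels. The rank correlation with total counts was 0.29 and 0.40 for Gdf9, 0.25 and 0.30 for Bmp15, and 0.08 and 0.08 for Bmp6 at P2.5 and P6.5, and rho with genes detected was 0.21 and 0.56, 0.35 and 0.57, and 0.35 and 0.33. With both regressed out of the ranks, Gdf9 and Bmp15 were at 0.41 and 0.56, Gdf9 and Bmp6 at 0.12 and 0.35, and Bmp15 and Bmp6 at 0.14 and 0.39. The percentiles given above were not adjusted in this way. After thinning to 100000 counts, Gdf9 and Bmp15 were at 0.41 and 0.64. Counts of Bmp6 were few, and its P2.5 values of 0.16 and 0.24 are weak. At E17.5, rho of Gdf9 and Bmp15 over 22 libraries was 0.78, but the libraries fall in the 2 sets described above, and within libraries 1 to 10 it was 0.66 with depth and genes detected ignored and 0.05 with them regressed out.

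**Figure D4:**
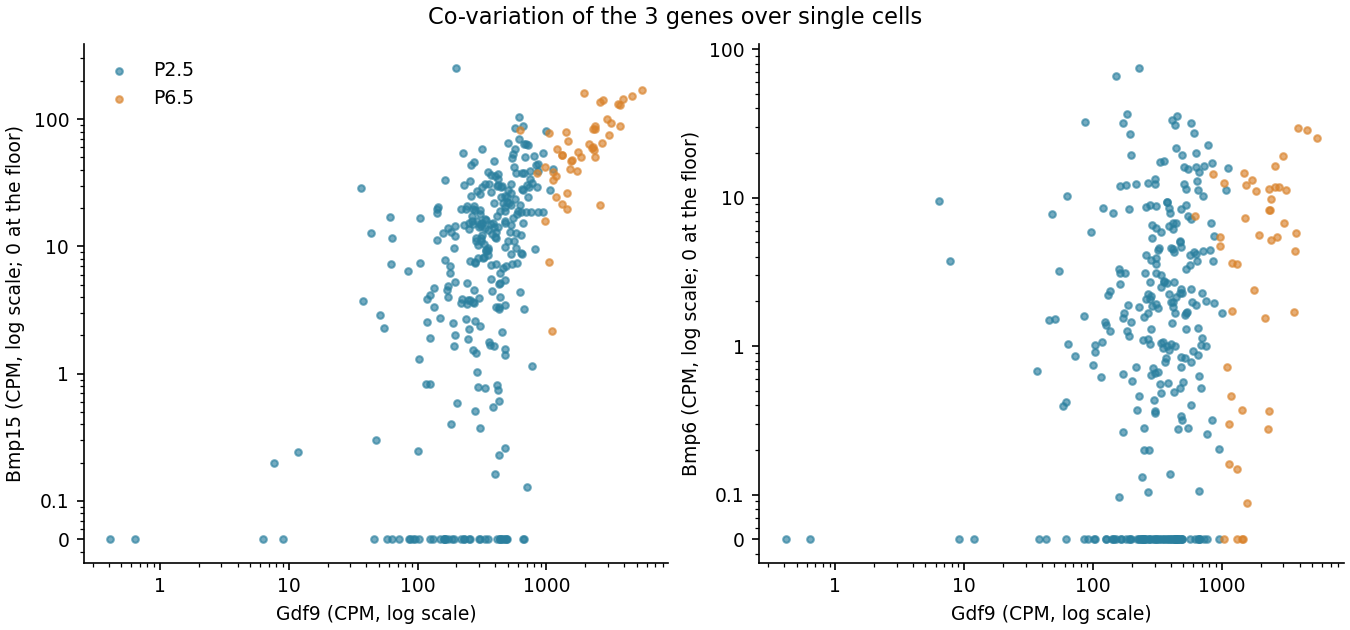
Bmp15 (left) and Bmp6 (right) against Gdf9 in P2.5 and P6.5 cells, in CPM on log axes with values of 0 drawn at the floor. Bmp15 follows Gdf9 within each stage (rho 0.46 and 0.70), and Bmp6 is scattered at P2.5 (rho 0.16).

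The genes whose levels were most like Gdf9 over P2.5 cells were Zp3, Zp2, Padi6, Nlrp14 and Zp1, with rho of 0.77, 0.68, 0.68, 0.67 and 0.65. Zp1, Zp2 and Zp3 encode zona pellucida proteins of the egg coat, and PADI6 is a protein of the oocyte's cytoplasmic lattices. The lowest were H2afv, a histone variant gene, Suv39h1, a histone methyltransferase gene, and Cacybp, at -0.46, -0.46 and -0.45. For Bmp15 the highest were Elobl, Zp3, Nlrp14, Padi6 and Npm2, at 0.54, 0.52, 0.51, 0.51 and 0.50, and the lowest H2afv, Ndufa7 and Spc24, at -0.46, -0.46 and -0.43. Zp3, Nlrp14 and Padi6 stood among the first 5 for each of these 2 genes. For Bmp6 no gene exceeded 0.29: Ranbp1, Pla2g4c, Ccna2, Fbxo40 and Eml6 led, at 0.27 to 0.29, and came to 0.07 to 0.18 after thinning. The lowest for Bmp6 were Pomgnt2, Saraf and Eif3f, at -0.32, -0.30 and -0.28.

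Over P6.5 cells Zp3 again led for Gdf9 (0.91), followed by Prdx2 (0.87), Zp1 (0.86), Pkd2l2 (0.85) and Tubg2 (0.85), with Cct6a, Tpr and Snrpb lowest at -0.82, -0.81 and -0.79. For Bmp15 the highest were Zbed3, Bscl2, Khdc3, Tent5c and Pla2g4c, at 0.80, 0.79, 0.76, 0.76 and 0.75, and Rps27 and Cdk1 were among the lowest at -0.73 and -0.72. KHDC3 and ZBED3 are proteins of the subcortical maternal complex or its partners, and RPS27 is a ribosomal protein. For Bmp6 the highest were Pls1, Bscl2, Gstt2, Eif4enif1 and Tspan14, at 0.64, 0.61, 0.61, 0.59 and 0.58, and the lowest Nprl3, Vps72 and Tmem160, at -0.64, -0.60 and -0.59. After thinning, the 5 highest for Gdf9 came to 0.62 to 0.74 at P2.5 and 0.69 to 0.91 at P6.5, and those for Bmp15 to 0.35 to 0.41 and 0.41 to 0.72. Those for Bmp6 at P6.5 came to 0.26 to 0.45, with Pls1 and Gstt2 at 0.26 each. Among the lowest, Tpr with Gdf9 came to -0.47. Among the 100 genes most like each, Gdf9 and Bmp15 shared 53 at P2.5 and 44 at P6.5. Gdf9 and Bmp6 shared 15 and 29, and Bmp15 and Bmp6 shared 16 and 37. With the summed growth and egg coat genes, rho was 0.72 and 0.90 for Gdf9, 0.48 and 0.65 for Bmp15, and 0.10 and 0.27 for Bmp6.

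Uqcrq, beside Gdf9, was at 105.5, 285.2 and 229.1 CPM at the 3 stages, higher at P2.5 than at E17.5 as Gdf9 was, and its rho with Gdf9 over P2.5 cells was -0.19. Txndc5, beside Bmp6, was at 68.8, 65.8 and 142.1 CPM, with rho of 0.08 with Bmp6 at P2.5 and 0.40 at P6.5. Its rho was higher with the 2 genes it does not adjoin, at 0.23 and 0.44 with Gdf9 and 0.25 and 0.53 with Bmp15. The antisense transcript 4930579J19Rik, inside Bmp6, had 76 counts at P2.5 and 0 at the other stages.

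Of the oocyte transcription factors, NOBOX, FIGLA, LHX8 and SOHLH1 are known to be needed for early oocyte gene expression, and TBPL2 is the oocyte's TATA-binding protein. On library totals, the P2.5 sum was at least 2-fold above E17.5 for 5 of 9 and below it for 2 (7 and 1 with spike-ins). Of all genes, 22.6% were higher and 32.4% lower on library totals, and 75.5% and 4.16% with spike-ins. None of the 9 moved 2-fold from P2.5 to P6.5, where 6.90% of all genes were higher and 9.30% lower. With spike-ins 9 were higher in that step, where 99.1% of all genes were. The median log2 ratio of the list was 1.97 and -0.04, against -0.26 and -0.18 over all genes. Nobox was at 78.1, 944 and 1352 CPM and Tbpl2 at 0.00708, 65.9 and 88.02, while Gata4, a granulosa cell factor, went from 53.7 to 2.46 and Taf4b from 307.2 to 108.9 by P2.5. Gata4 was at 0.822 CPM in E17.5 libraries 1 to 10 and 96.7 in libraries 11 to 22, so against libraries 1 to 10 it was higher at P2.5 (log2 1.16). With those libraries alone 7 of the list were higher and 1 lower, where 28.3% and 25.1% of all genes were. Nobox was at 165.65 CPM in E17.5 libraries 1 to 10 and 7.13 in libraries 11 to 22, a division like that of Gdf9. Over P2.5 cells, rho of Nobox was 0.53 with Gdf9, 0.27 with Bmp15 and 0.10 with Bmp6, that of Tbpl2 was 0.44, 0.26 and 0.16, and that of Figla was 0.04, -0.11 and 0.02. Over P6.5 cells, rho of Nobox was 0.13, 0.31 and 0.28.

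Other oocyte-made signals, such as Kit, the receptor of KIT ligand, Jag1, a Notch ligand, and Rspo2, a Wnt enhancer, were mostly higher in later cells. Of the list, 4 of 5 measured genes passed 2-fold upward at P2.5 and 5 of 7 did so at P6.5 over P2.5. None was lower on library totals, and with spike-ins 5 of 5 and 7 of 7 were higher. Of all genes, 22.6% and 6.90% were higher on library totals, and 75.5% and 99.1% with spike-ins. Rspo2 was at 1.03, 36.9 and 115.75 CPM, Jag1 at 6.64, 88.6 and 106.5, and Kit at 597, 1495 and 1114. Kit, which mast cells also express, was at 1201 CPM in E17.5 libraries 1 to 10, which hold the mast cell marker counts, and at 106.8 in libraries 11 to 22. Against libraries 1 to 10 alone its log2 ratio was 0.32, under 2-fold. With those libraries 3 of the list were higher and 1 lower, where 28.3% and 25.1% of all genes were. The part of mast cell RNA in this was not tested. The genes of the oocyte-secreted proteins, Oosp1 and Oosp2, reached 71.8 and 43.2 CPM in P6.5 cells against 1.16 and 2.98 at the stage before, ratios in log2 of 5.44 and 3.65, above the 2.39 of Gdf9. Of the growth and egg coat list, 14 of 15 genes passed 2-fold upward at P2.5, where 22.6% of all genes did. At P6.5 over P2.5, 13 of 15 did so, against 6.90% of all genes. None of the list was lower, and list medians were 6.16 and 2.40.

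Of the other TGF-beta family ligands, 13 of 30 were measured across E17.5 and P2.5. With spike-ins, 5 of these were higher and 1 lower at P2.5, where 75.5% and 4.16% of all genes were. On library totals 3 passed 2-fold upward and 8 downward, where 22.6% and 32.4% of all genes did. The median log2 ratio was -1.59 against -0.26 over all genes. Tgfb3 was at 2.90, 32.3 and 23.7 CPM, Tgfb2 at 2.34, 11.2 and 63.9, and Bmp7 at 8.32, 15.3 and 20.2. Tgfb1 went from 13.8 to 0.151 CPM by P2.5, and Gdf3 from 8.09 to 0.782. From P2.5 to P6.5, 2 of 7 were higher and 0 lower, where 6.90% and 9.30% of all genes were. Tgfb2 was at a log2 ratio of 2.46, and 7 of 7 were higher with spike-ins, where 99.1% of all genes were. With E17.5 libraries 1 to 10 alone, 5 were higher and 3 lower at P2.5, where 28.3% and 25.1% of all genes were. The count of lower ligands thus rested in part on libraries 11 to 22. Bmp7 was one that differed by library, at 18.5 CPM in libraries 1 to 10 and 0.0257 in libraries 11 to 22.

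The receptors that GDF9, BMP15 and BMP6 use are type I receptors encoded by Tgfbr1, Bmpr1a, Bmpr1b and Acvr1 and type II receptors encoded by Bmpr2 and Acvr2a. Of 5 type I receptors measured across E17.5 and P2.5, 1 was at least 2-fold higher and 1 lower, where 22.6% and 32.4% of all genes were. None of 5 moved 2-fold from P2.5 to P6.5 on library totals, where 6.90% and 9.30% of all genes did. Counts this small cannot be told from those shares. With TMM 2 were higher and with spike-ins 5, where 9.75% and 99.1% of all genes were. Bmpr1b, a BMP15 and BMP6 receptor, was at 3.47, 26.03 and 48.7 CPM. Tgfbr1, a GDF9 receptor, was at 121.25, 64.7 and 45.9, Bmpr1a at 34.4, 26.3 and 14.9, and Acvr1 went from 6.48 to 0.992 by P2.5. Within E17.5, Tgfbr1 was at 196.9 CPM in libraries 1 to 10 and 59.9 in libraries 11 to 22. Against libraries 11 to 22 its P2.5 level was not lower (log2 0.11). Bmpr1b was at 0.332 and 6.01 CPM in these 2 sets, and its P2.5 level was above both. Of 5 type II receptors, 0 were higher and 3 lower at P2.5 on library totals. With spike-ins 3 were higher and 2 lower, where 75.5% and 4.16% of all genes were. Bmpr2 was at 29.3, 17.1 and 13.05 CPM and Acvr2a at 80.8, 36.2 and 26.4. Amhr2, the granulosa cell receptor of anti-Mullerian hormone, was at 104.7, 4.28 and 0.474, and Tgfbr2 at 14.7, 0.340 and 0.152. At E17.5 Amhr2 was at 0.695 CPM in libraries 1 to 10 and 189.1 in libraries 11 to 22. With libraries 1 to 10 alone 1 type II receptor was higher and 1 lower, where 28.3% and 25.1% of all genes were.

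Co-receptors gave 1 of 6 higher and 2 lower at P2.5, near the 22.6% and 32.4% of all genes. At P6.5 over P2.5 they gave 0 of 5 either way, against 6.90% and 9.30%. With spike-ins 4 were higher and 1 lower at P2.5, where 75.5% and 4.16% of all genes were. In the later step 5 were higher with spike-ins, where 99.1% of all genes were. Cfc1, a co-receptor gene of the EGF-CFC family, was at 0, 8.01 and 3.84 CPM, and Rgmb, a BMP co-receptor, at 30.8, 50.5 and 40.5. Eng went from 21.3 to 0.913 CPM by P2.5 and Bambi from 39.4 to 7.52. Leaving out libraries 8, 10, 15 and 16, Eng was at 2.42 CPM and Bambi at 16.5 at E17.5. Bambi was at 4.96 CPM in E17.5 libraries 1 to 10 and 67.4 in libraries 11 to 22. Against libraries 1 to 10 its P2.5 level was thus the higher one (log2 0.55). The counts with those libraries alone were 2 higher and 1 lower, where 28.3% and 25.1% of all genes were.

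Among 12 SMADs and SMAD regulators, 3 passed 2-fold upward and 4 downward at P2.5 on library totals, shares near the 22.6% and 32.4% of all genes. With spike-ins 9 and 0 did, where 75.5% and 4.16% of all genes did. From P2.5 to P6.5, 0 of 11 moved 2-fold, where 6.90% of all genes were higher and 9.30% lower. With spike-ins 11 were higher in that step, where 99.1% of all genes were. With E17.5 libraries 1 to 10 alone 4 were higher and 2 lower at P2.5, where 28.3% and 25.1% of all genes were. Smad4, the common SMAD, was at 8.16, 32.4 and 20.1 CPM, and Ski, a SMAD co-repressor, at 47.1, 153.5 and 270.75. Smad2 and Smad3 were at 99.8 and 63.8 CPM at P2.5, and Smad1 and Smad5 at 8.41 and 30.5. The inhibitory Smad6 went from 6.58 to 0.615 CPM by P2.5 and Skil from 43.3 to 7.55. Smad6 at E17.5 was at 14.4 CPM in libraries 1 to 10 and 0.231 in libraries 11 to 22, so against libraries 11 to 22 it was not lower (log2 0.61). Of 10 SMAD target genes, 0 were higher and 6 lower at P2.5 and 0 of 8 higher and 2 lower at P6.5 over P2.5. With spike-ins 5 were higher and 1 lower, then 8 higher and 0 lower, where 75.5% and then 99.1% of all genes were higher. Id1 was at 605, 96.8 and 38.8 CPM, Id2 at 173.9, 143.5 and 56.2, Id3 at 366, 86.7 and 48.7, and Msx1 went from 26.4 to 1.14 by P2.5. Msx1 was at 0.442 CPM in E17.5 libraries 1 to 10 and 47.5 in libraries 11 to 22, and against libraries 1 to 10 its direction turned (log2 0.80). With those libraries alone 2 SMAD targets, Msx2 and Hey1, passed 2-fold upward (log2 3.08 and 2.66) and 5 passed it downward. Of all genes, 28.3% and 25.1% did so with those libraries.

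**Figure D5:**
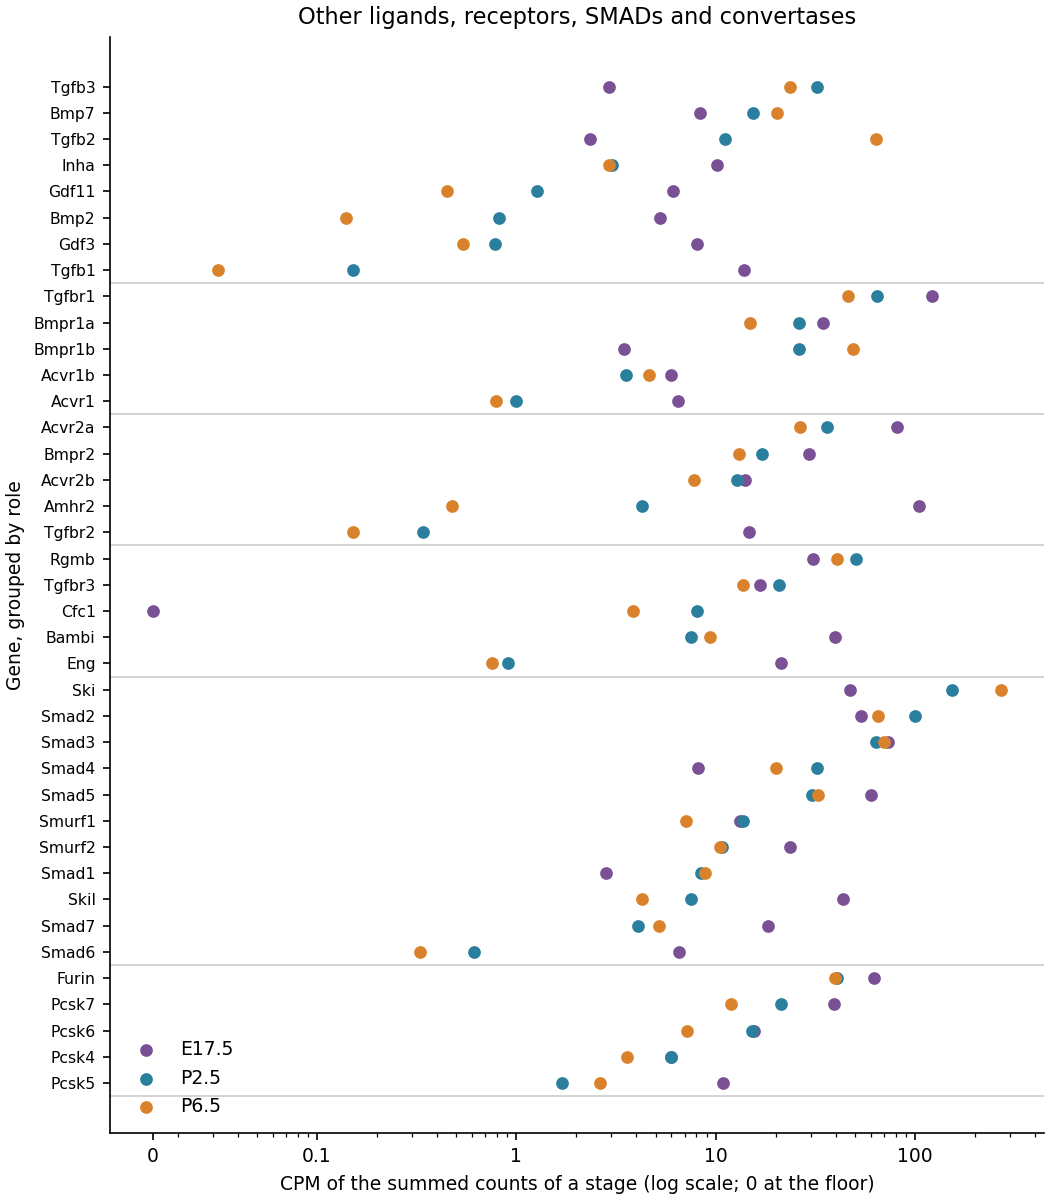
Stage-sum CPM, with all 22 E17.5 libraries summed, on a log axis, with 0 drawn at the floor, of the other ligands, type I and type II receptors, co-receptors, SMADs and convertases that reached 5 CPM at a stage, each with 1 point per stage and grouped by role from top to bottom. Tgfb2, Tgfb3, Bmpr1b, Smad4 and Ski have their E17.5 point at the left, and Tgfb1, Tgfbr2, Amhr2 and Eng have it at the right.

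The proprotein convertases, which release the mature ligands, gave 0 of 5 higher and 1 lower at P2.5. At P6.5 over P2.5 they gave 0 higher and 1 lower. With spike-ins they gave 4 and 0, then 5 and 0, where 75.5% and then 99.1% of all genes were higher. On library totals, 22.6% of all genes were higher and 32.4% lower in the first comparison and 6.90% and 9.30% in the second. With E17.5 libraries 1 to 10 alone 0 convertases were higher and 2 lower, where 28.3% and 25.1% of all genes were. Furin was at 61.9, 40.4 and 39.5 CPM, Pcsk6 at 15.5, 15.2 and 7.17, and Pcsk5 at 10.9, 1.70 and 2.64. Of 11 secreted antagonists, 2 were higher and 7 lower at P2.5, against the 22.6% and 32.4% of all genes. From P2.5 to P6.5, 0 of 6 moved 2-fold. With spike-ins 5 were higher and 1 lower, then 6 higher, where 75.5% and then 99.1% of all genes were higher. Dand5, a DAN family antagonist, was at 1.01, 12.4 and 10.7 CPM, and Twsg1 at 55.5, 28.5 and 33.2. Fst, which encodes the granulosa cell product follistatin, went from 20.9 to 0.961 CPM by P2.5, and was at 0 in E17.5 libraries 1 to 10 and 37.9 in libraries 11 to 22. With libraries 1 to 10 alone, 4 antagonists were higher and 2 lower, where 28.3% and 25.1% of all genes were. The list of cumulus response genes had 1 measured member of 5, so no count is given for it.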

How the data were processed

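Libraries were made with Smart-seq2 and sequenced as 150-base pairs, per the labels' protocols. The authors deposited raw counts per gene and FPKM values, both with 1 column per library. The submitters' processing notes name STAR 2.7.10b, HTSeq 0.13.5, RSEM 1.3.3 and mm10; the tool behind each table, the annotation and the strand setting are not stated there. The 92 spike-in rows stayed out of library totals. Libraries were joined as 1 cell where their counts over genes with at least 20 summed counts gave a median chi-square below 1.5 (0.686 to 1.03 in the 24 pairs, 2.84 in the closest pair not joined), so the 317 libraries of P2.5 became 293 cells. CPM came from stage sums or single cells, and ratios used a pseudocount of 0.5 CPM over genes at 1 CPM or more at a stage and counted in 3 cells or more. Exact Poisson, conditional and Clopper-Pearson intervals (95%) were computed in Python 3.11.15 with scipy 1.17.1, and TMM factors in edgeR 4.0.16. Likeness was Spearman's rho over genes at 20 CPM or more that had counts in 50% of cells or more. The ranking and sums were tested on simulated data.

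Named genes were the 3 ligands, up to 2 at either end of the log2 ratio in each list with at least 5 CPM, the 5 highest and 3 lowest by rho, and overlapping or adjacent genes; 1 gene that this rule names is not reported here. Others named in the lists, the 6 background genes and single cells were chosen after their values were seen. The 3 genes, the gene lists and the division of the E17.5 libraries were chosen with earlier results of these data known. Stages are unreplicated, so no p-value is given.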

Additional observations from a re-analysis of the deposited data

How the results depend on the processing

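Alternatives changed the scaling, the pseudocount, the filter, the way cells were summed, the treatment of near-identical pairs and the E17.5 libraries used. Across them no log2 ratio of Gdf9, Bmp15 or Bmp6 changed sign. P2.5 over E17.5 ran from 5.09 to 8.13 for Gdf9, 1.60 to 5.16 for Bmp15 and 1.54 to 5.38 for Bmp6, at least 2-fold in 12 of 12 settings each. P6.5 over P2.5 ran from 2.39 to 5.33, 2.02 to 4.96 and 0.47 to 3.64, at least 2-fold in 9 of 9 settings for Gdf9 and Bmp15 and in 3 of 9 for Bmp6. P6.5 over E17.5 ran from 7.48 to 13.5, 3.62 to 9.98 and 2.22 to 9.02, at least 2-fold in 11 of 11 settings each. The rank correlation of Gdf9 and Bmp15 at P2.5 was 0.56 per spike-in count in place of 0.46, and the cause was not tested. Without thinning, which leaves more counts per cell, shares of cells with a count were 90.9% and 100% for Gdf9 at E17.5 and P2.5, 85.3% and 100% for Bmp15 at P2.5 and P6.5, and 59.1%, 73.7% and 91.5% for Bmp6 at the 3 stages. With at least 10 counts they were 74.4% and 100% for Bmp15 and 44.7% and 72.3% for Bmp6 at P2.5 and P6.5. List counts, recomputed under settings added after seeing the data, stayed within 1.5 times in 1084 of 1308 cases. No paired analysis was possible because the label numbers name single cells and no test was made.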
